A study of Gallus gallus with 6 samples.

Results

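Transcripts of the activating arm of the circadian clock and of the factors that read its D-box output were followed in broiler pectoral muscle, and 9 genes were sought by name in a table of 20943 genes. Rows were found for 8 of them, namely ARNTL, ARNTL2, CLOCK, NPAS2, RORA, HLF, TEF and NFIL3. No row used here carries the name DBP, so that gene was not analysed here. The study addressed how dietary vitamin E bears on fat within the muscle and on its transcriptome. The birds were female chickens sampled at 35 days of age. Control birds received a basal diet with 0 IU/kg of added vitamin E, and the other group received the same diet with 100 IU/kg of DL-α-tocopheryl acetate, the acetate ester of the lipid-soluble antioxidant α-tocopherol. Each group had 3 pectoralis major samples, and each sample gave 1 poly(A)-selected library. The labels do not say whether these came from separate birds or pens, so p-values measure only the spread between these samples. The labels name neither the strain of broiler nor the hour of sampling, the light schedule or the feeding state before sampling.

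The clock is a loop of transcription that runs in most cells of birds and mammals with a period near that of the day. A dimer of BMAL1 (gene ARNTL) or BMAL2 (ARNTL2) with CLOCK or its relative NPAS2 binds E-box elements and drives the genes of its own repressors, among them the period and cryptochrome proteins and the nuclear receptors REV-ERB. In mammals, ROR receptors such as RORA activate ARNTL through response elements that REV-ERB receptors also bind and repress. Output runs partly through D-box elements, which the related proline and acidic amino acid-rich leucine zipper factors HLF, TEF and DBP activate and NFIL3 (E4BP4) represses. In mammalian skeletal muscle, clock factors take part in the daily timing of fuel use.

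Expression was given as FPKM, that is, fragments per kilobase of gene scaled to the library's total. Totals recovered from the FPKM steps ran from 14161399 to 25477341 reads, and each vitamin E library had fewer than any control library. Control replicate 1 was the deepest library and had the most extreme score on the first principal component of the tested genes, -34.4, with the remaining scores spread from -14.2 to 17.4. The test was limma on log2(FPKM + 1) for the 11320 genes that averaged 1 FPKM or more, and 0 of them (0%) passed an adjusted p of 0.05. The lowest adjusted p was 0.0656, and 9.11% of the genes had an unadjusted p under 0.05. Muscle fibre markers were abundant: the 11 fast fibre and general fibre genes with a row summed to between 67680 and 86293 FPKM per library. The 6 nerve and Schwann cell markers with a row all averaged under 1 FPKM.

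Mean levels in the vitamin E group were 2.05 times those of the controls for ARNTL, 2.08 times for HLF and 1.67 times for NFIL3. CLOCK, ARNTL2, TEF and RORA differed by less than the spread between libraries. NPAS2 averaged under 1 FPKM and was left out of the test. Of the 7 tested genes, 0 passed the adjusted test of limma, and 3 had an unadjusted p under 0.05, all of them higher with vitamin E, where the same holds for 5.97% of all tested genes. The groups did not overlap in 2 of the 7, both higher with vitamin E, against 14.6% of all tested genes, of which 8.86% were higher and 5.72% lower. The median difference of the 7 was 0.12 on the log2(FPKM + 1) scale, and that of all tested genes was 0.019. The genes were chosen with earlier results of these data known, so these counts describe the group and do not test it.

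Among the activators, ARNTL, whose loss alone stops the behavioural rhythm in mouse, lies on chromosome 5 between 7560351 and 7605130 on the minus strand of the unnamed build of the table. Its level was 5.09, 3.70 and 3.23 FPKM in control replicates 1, 2 and 3. It was 8.28, 8.57 and 7.79 FPKM in vitamin E replicates 1, 2 and 3. Every vitamin E library lay above every control library, and the highest control was replicate 1. The means were 4.00 ± 0.966 and 8.21 ± 0.397 FPKM (SD, n = 3). The log2 difference was 0.90 ± 0.15 (SE), with a 95% interval from 0.54 to 1.26. Its adjusted p in limma was 0.249, and its unadjusted p of 5.50e-04 placed it 24th of 11320 genes. With each library left out in turn, it ran from 0.78, without control replicate 3, to 1.05, without control replicate 1, and the adjusted p under all alternatives from 0.165 to 0.745. The values rested on 174 to 430 reads per library.

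Its paralogue ARNTL2, whose protein can take the place of BMAL1 beside CLOCK, had nearly equal means in the groups. ARNTL2 (chromosome 1, 68192300 to 68229112, plus strand) stood at 4.85, 5.26 and 4.39 FPKM in the 3 controls and at 4.97, 5.21 and 4.43 FPKM with vitamin E. The groups covered nearly the same range. The log2 difference was 0.0093 ± 0.12 (SE), with a 95% interval from -0.26 to 0.28, and it turned to -0.015 with TMM-type and -0.020 with quantile scaling. The interval of ARNTL2 ends below that of ARNTL, but the difference between these genes was not tested. Within libraries, the level of ARNTL was 1.05, 0.70 and 0.74 times that of ARNTL2 in the controls and 1.67, 1.64 and 1.76 times with vitamin E.

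CLOCK, the partner of BMAL1 in the activating dimer, was read over the longest counted length, 13202 bases, and so rested on 1143 to 2630 reads per library. CLOCK (chromosome 4, 65471431 to 65531356, plus strand) was at 7.82, 6.31 and 5.33 FPKM in the controls and at 6.68, 7.17 and 7.42 FPKM with vitamin E. The vitamin E values lay inside the range of the controls, which were themselves widely spread with replicate 1 highest. Its log2 difference was 0.12 ± 0.14 (SE; 95% interval -0.21 to 0.46), with values of 0.25 without control replicate 1 and 0.010 without control replicate 3. In relation to CLOCK, the level of ARNTL was 0.65, 0.59 and 0.61 in the controls and 1.24, 1.20 and 1.05 with vitamin E. ARNTL stood below CLOCK in 3 of 3 controls and above it in 3 of 3 vitamin E libraries.

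NPAS2, a relative of CLOCK that can pair with BMAL1, was the lowest of the 8 genes. NPAS2 (chromosome 1, 133321944 to 133431024, plus strand) was at 0.211, 0.230 and 0.107 FPKM in the controls and at 0.235, 0.618 and 0.507 FPKM with vitamin E. These values came from 34, 25 and 11 reads in the controls and 21, 58 and 49 reads with vitamin E. The groups did not overlap, but vitamin E replicate 1 exceeded control replicate 2 by little, and its 95% Poisson interval of counting error, from 0.145 to 0.359 FPKM, covers the levels of control replicates 1 and 2. Fitted with no filter on low values, the log2 difference was 0.29 ± 0.11 (SE), with an unadjusted p of 0.0357 and an adjusted p of 0.672 in limma. The pseudocount of 1 holds this value down at so low a level: with no filter, it was 0.93 with a pseudocount of 0.1 and 1.24 with limma-voom on recovered reads, both chosen after seeing the data. Without single libraries it ran from 0.21 to 0.40, with adjusted p values between 0.519 and 0.867 in limma, and the unadjusted p stayed under 0.05 only without vitamin E replicate 1. NPAS2 reached at most 0.086 of the level of CLOCK in any library.

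**Figure D1:**
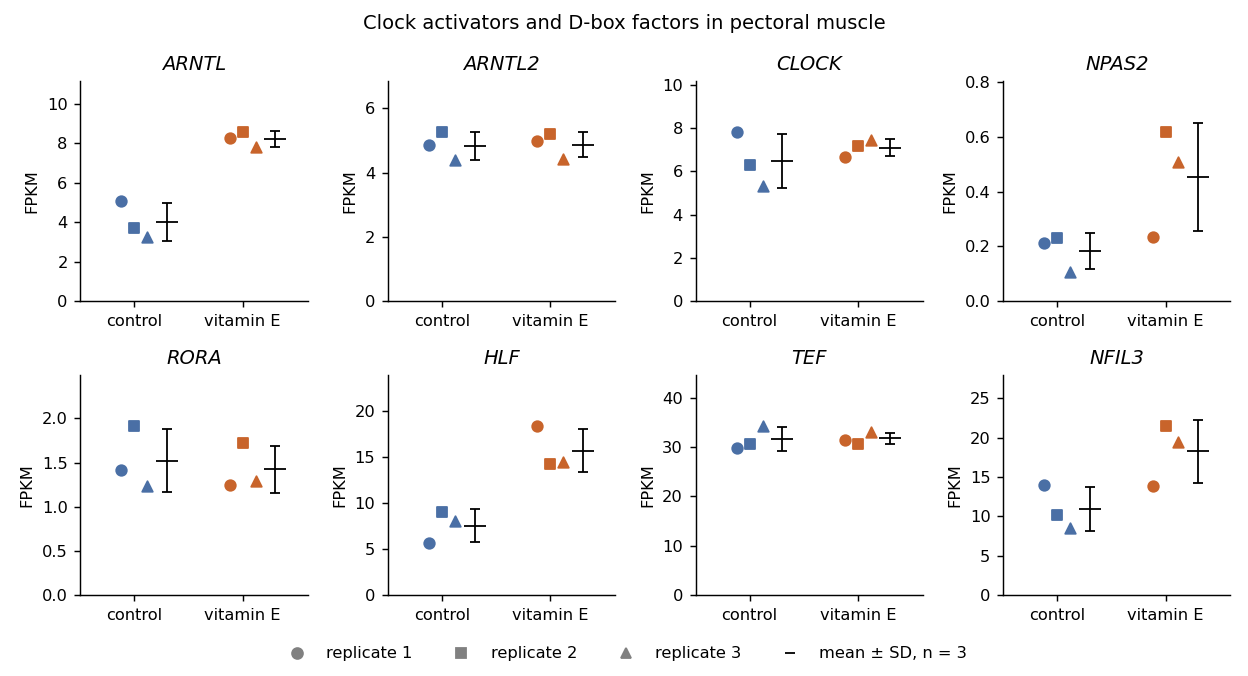
Levels of the 8 genes in FPKM (vertical axes from 0, a scale for each gene) in the control libraries (blue) and the vitamin E libraries (orange), with replicate 1 as a circle, replicate 2 as a square and replicate 3 as a triangle, and the mean ± SD (n = 3) beside them. ARNTL and HLF show separate groups, NFIL3 overlaps only through control replicate 1 and vitamin E replicate 1, and ARNTL2, CLOCK, RORA and TEF overlap throughout.

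RORA, the receptor that activates ARNTL in mammals, was low, and its groups overlapped. RORA (chromosome 10, 4625085 to 4980804, plus strand) was at 1.41, 1.92 and 1.24 FPKM in the controls and at 1.25, 1.73 and 1.29 FPKM with vitamin E. Replicate 2 was the highest library of each group. Its log2 difference was -0.054 ± 0.16 (SE; 95% interval -0.43 to 0.32), and without control replicate 2 it was 0.056. Its relative RORB was at or below 0.057 FPKM in every library.

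Of the D-box factors, HLF, an activator, had the largest log2 difference of the 7 tested genes. HLF (chromosome 18, 5980813 to 6014231, plus strand) was at 5.61, 9.01 and 8.01 FPKM in the controls and at 18.4, 14.2 and 14.4 FPKM with vitamin E. The groups did not overlap, and control replicate 1 was the lowest control, where it had been the highest for ARNTL. The means were 7.54 ± 1.75 and 15.7 ± 2.34 FPKM (SD, n = 3). On the log2 scale they differed by 0.98 ± 0.18 (SE), with a 95% interval from 0.54 to 1.41. Its adjusted p in limma was 0.262, and its unadjusted p of 9.94e-04 placed it 40th. The adjusted p ran from 0.130 to 0.745 under the alternatives. Without single libraries the difference ran from 0.80, without control replicate 1, to 1.10, without control replicate 2.

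TEF, an activator of the same family, had the highest level of the 8 genes and the lowest coefficient of variation. TEF (chromosome 1, 49698489 to 49713034, minus strand) was at 29.8, 30.6 and 34.3 FPKM in the controls and at 31.5, 30.7 and 33.1 FPKM with vitamin E. All 6 values lay within 1.15 times of each other. The log2 difference was 0.0092 ± 0.11 (SE; 95% interval -0.25 to 0.27), and it turned to -0.020 with TMM-type and -0.0011 with quantile scaling. The coefficient of variation of TEF over the 6 libraries was 5.44%, where counting error alone gives 4.34%. The corresponding figures were 41.5% and 4.86% for HLF. HLF made up 15.9%, 22.7% and 18.9% of the summed HLF and TEF level in the controls and 36.8%, 31.7% and 30.4% with vitamin E.

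NFIL3, the repressor at D-box elements, was also higher on average with vitamin E, with an overlap of the groups. NFIL3 (chromosome Z, 44344648 to 44358564, minus strand) was at 14.0, 10.2 and 8.56 FPKM in the controls and at 13.9, 21.5 and 19.4 FPKM with vitamin E. Of the 9 pairs of a vitamin E and a control library, 8 had the higher value with vitamin E, and the exception was replicate 1 of each group. The means were 10.9 ± 2.77 and 18.3 ± 3.97 FPKM (SD, n = 3). On the log2 scale they differed by 0.70 ± 0.22 (SE), with a 95% interval from 0.19 to 1.21. The adjusted p in limma was 0.417, and between 0.333 and 0.825 under the alternatives. Its unadjusted p was 0.0141, and it was 0.0528 without vitamin E replicate 2. Without single libraries the difference ran from 0.55 to 0.87.

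**Figure D2:**
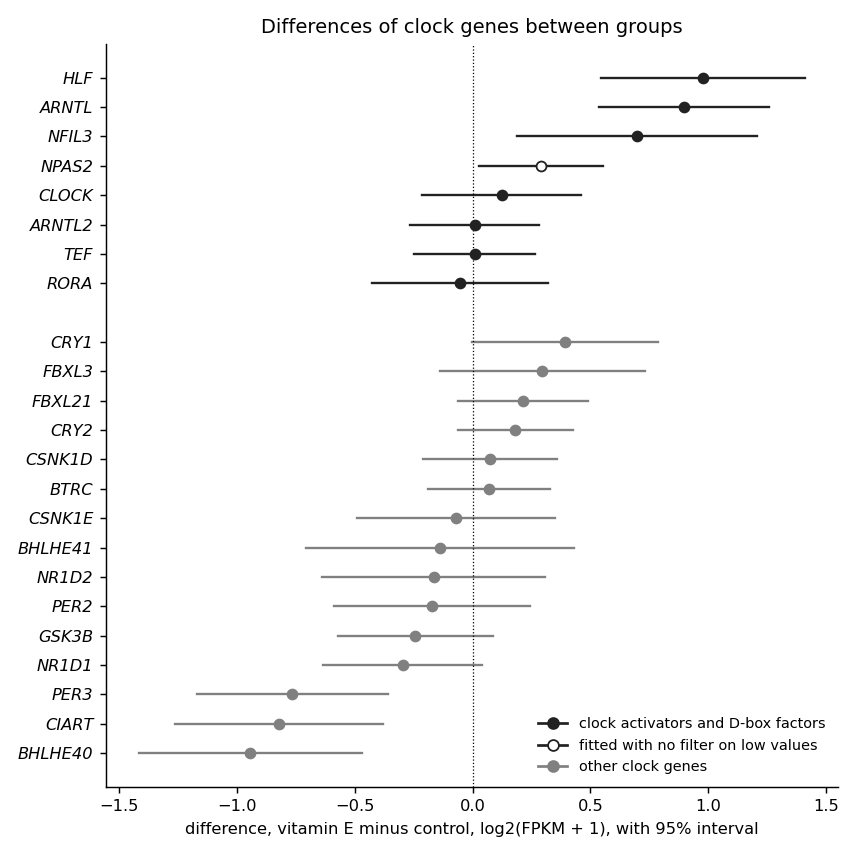
Difference between vitamin E and control on the log2(FPKM + 1) scale (horizontal axis) with the 95% interval from limma, for the 8 clock activators and D-box factors (black; NPAS2, open, from the fit with no filter on low values) and 15 other clock genes (grey). HLF, ARNTL and NFIL3 lie at 0.98, 0.90 and 0.70, and BHLHE40, CIART and PER3 at -0.94, -0.82 and -0.76.

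The balance of activator and repressor transcripts at the D-box did not separate the groups. The ratio of HLF to NFIL3 was 0.40, 0.88 and 0.94 in the controls and 1.33, 0.66 and 0.74 with vitamin E. Vitamin E replicate 1, highest in HLF and lowest of its group in NFIL3, was the only library with more HLF than NFIL3. The ratio of HLF and TEF together to NFIL3 was 2.53, 3.88 and 4.95 in the controls and 3.60, 2.08 and 2.44 with vitamin E, so the summed activators exceeded the repressor in all 6 libraries. These ratios leave out DBP, and they compare transcripts per length, not proteins.

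**Figure D3:**
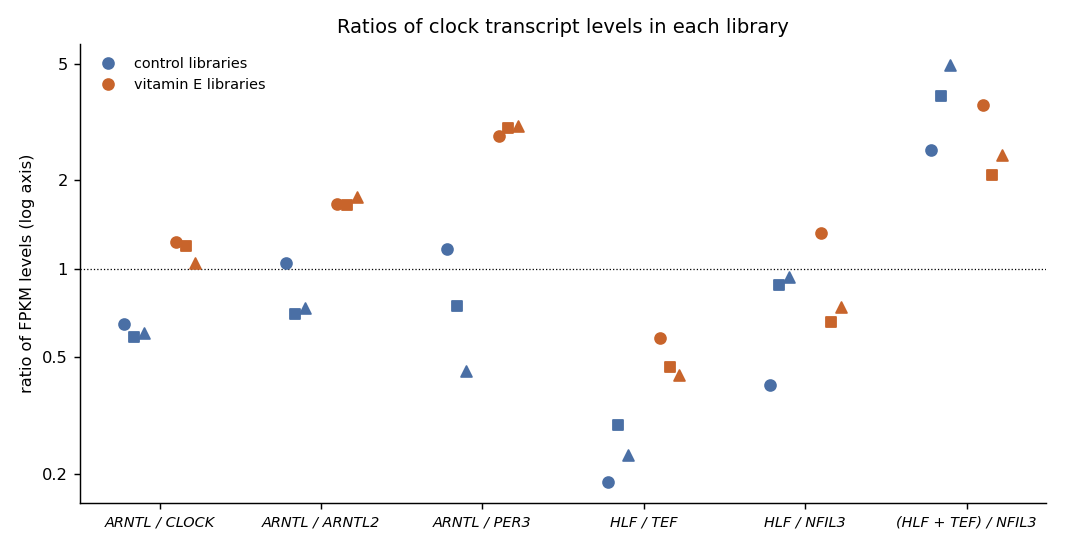
Ratios of FPKM levels within each library (log axis; the dotted line marks equal levels) for control (blue) and vitamin E (orange) libraries, with circles, squares and triangles for replicates 1, 2 and 3. The ratios of ARNTL to CLOCK, ARNTL2 and PER3 and of HLF to TEF separate the groups, and those to NFIL3 overlap. ARNTL and PER3 each separate the groups in opposite directions, so the separation of their ratio was fixed by these genes.

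The order of the levels differed between the groups in the place of ARNTL. In the controls TEF stood highest, followed by NFIL3, HLF, CLOCK, ARNTL2, ARNTL, RORA and NPAS2. The ranges of NFIL3 and HLF, of HLF and CLOCK, and of ARNTL2 and ARNTL overlapped there. With vitamin E the order was TEF, NFIL3, HLF, ARNTL, CLOCK, ARNTL2, RORA and NPAS2, and only NFIL3 and HLF overlapped. The coefficient of variation within the vitamin E group was 4.83% for ARNTL and 5.32% for CLOCK, against 24.1% and 19.3% in the controls. This was not particular to the subunits of the dimer. The coefficient was also lower with vitamin E for TEF (3.82% against 7.70%), HLF (14.9% against 23.1%), RORA, NFIL3 and ARNTL2. For NPAS2 it was higher, at 43.6% against 36.2%. These coefficients rest on 3 libraries each, and the difference in spread was not tested.

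The other genes of the loop were read from a list of 20 names, of which 17 had a row and 15 were tested. Of these 15, 0 passed the adjusted test, 3 were lower with vitamin E at an unadjusted p under 0.05, and none was higher at that threshold, where 3.14% of all tested genes were lower and 5.97% higher. The median of the 15 was -0.14. The groups did not overlap in 6 of the 15, against 14.6% of all tested genes. Among these 6 was NR1D1, which passed the limit of 1 FPKM only through the group where it is high, so its place there supports nothing. Of these 6, the cryptochrome genes CRY1 and CRY2 were higher with vitamin E, CRY2 by 0.18 ± 0.10 (SE) on the log2 scale. In either direction, the count of 3 was 7 without control replicate 2, with CRY1 among the 7 and higher with vitamin E. The count over all tested genes in either direction also went there from 1031 of 11320 to 1557 of 11296. The clock gene count was 5 with limma-voom on recovered reads, where 1034 of 11320 genes passed. There CRY1, higher with vitamin E, and NR1D1, lower, joined the 3, and the place of NR1D1 again supports nothing. The clock gene count was 1 with a minimum mean of 5 FPKM, a limit that leaves PER3 and CIART untested.

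The 3 genes that were lower at an unadjusted p under 0.05 encode repressors of the activating dimer. BHLHE40 (DEC1), which competes for E-box elements, was at 46.1, 41.9 and 27.9 FPKM in the controls and at 16.7, 20.6 and 20.6 FPKM with vitamin E, a log2 difference of -0.94. PER3, of the period family, was at 4.36, 4.95 and 7.20 FPKM and at 2.93, 2.83 and 2.54 FPKM, a difference of -0.76. CIART, a repressor of BMAL1 and CLOCK in mouse, was at 6.52, 5.35 and 7.27 FPKM and at 2.45, 4.31 and 2.92 FPKM, a difference of -0.82. In each of the 3 every vitamin E library lay below every control library, which holds for 5.72% of all tested genes. Their adjusted p values in limma were between 0.281 and 0.3001, and those under the alternatives ran from 0.169 to 0.760. The ratio of ARNTL to PER3 was at most 1.17 in the controls and at least 2.83 with vitamin E. Each of these genes separated the groups by itself, in opposite directions, so the ratio had to separate them and adds no evidence.

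Next by p came CRY1 and NR1D1, with unadjusted p values of 0.0518 and 0.0761. CRY1, a cryptochrome repressor, was at 40.0, 38.3 and 26.8 FPKM in the controls and at 42.5, 46.1 and 48.3 FPKM with vitamin E. Its groups did not overlap, and it differed by 0.39 ± 0.17 (SE) on the log2 scale. Without control replicate 3 this was 0.21, with an unadjusted p of 0.146, whereas the unadjusted p was 0.0464 with limma-voom, 0.0279 without control replicate 1 and 0.0472 without control replicate 2. NR1D1, which encodes REV-ERBα, the repressor at the elements that RORA uses, was at 1.21, 1.33 and 1.17 FPKM in the controls and at 0.66, 0.77 and 1.05 FPKM with vitamin E. No vitamin E library reached the lowest control, and its difference was -0.30 ± 0.14 (SE). It averaged 1.24 FPKM in controls and 0.827 FPKM with added vitamin E. It thus passed the limit of 1 FPKM only through the group where it is high, and its place here supports nothing. It was untested without control replicate 1 or 2. The difference was -0.55 with a pseudocount of 0.1 and -0.59 with limma-voom. Its unadjusted p was 0.0280 with limma-voom and between 0.0442 and 0.0494 with quantile scaling, no trend, no filter or vitamin E replicate 3 left out. NR1D2 and PER2 were added after their values were seen. NR1D2, the more abundant REV-ERB gene, averaged 24.2 ± 1.17 and 22.1 ± 6.11 FPKM (SD, n = 3), with overlapping groups. PER2 differed by -0.17 ± 0.18 (SE), and whether this differs from PER3 was not tested.

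**Figure D4:**
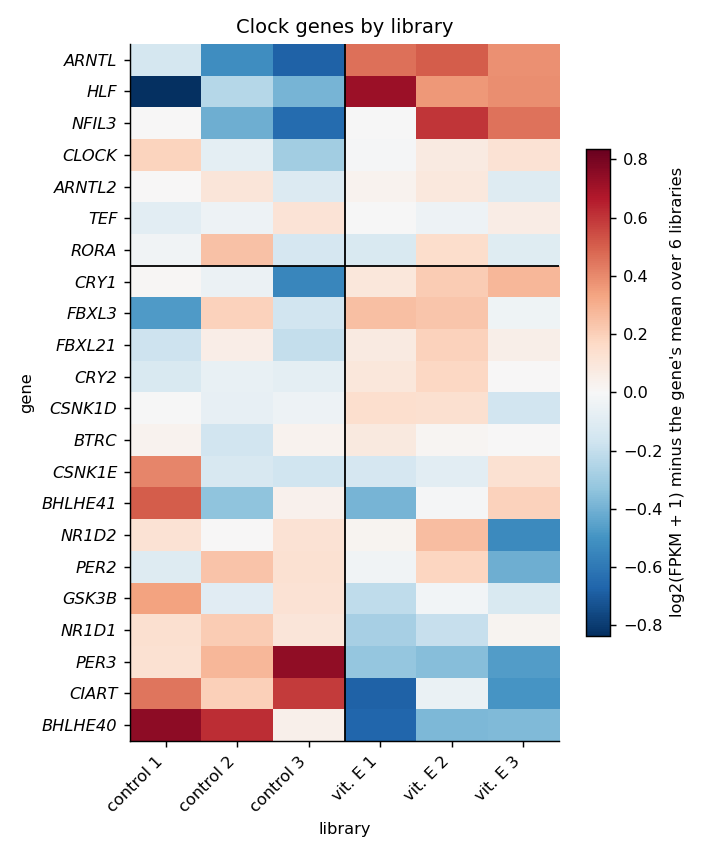
Log2(FPKM + 1) of each gene minus its own mean over the 6 libraries (colour scale), for the 7 tested activators and D-box factors (above the line) and 15 other clock genes (below), with the 3 control libraries on the left. ARNTL and HLF are below their mean in all 3 controls and above it in all 3 vitamin E libraries. BHLHE40, PER3 and CIART show the reverse. NR1D1, also drawn, passed the limit of 1 FPKM only through the group where it is high, so its place supports nothing.

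Genes known in mammals as muscle outputs of the clock or as fuel genes with a daily rhythm were read from a list of 20 names, 19 of them tested. Several entered the list with earlier results known, so their direction is not independent of those results. At an unadjusted p under 0.05, 7 of the 19 were higher and 0 lower with vitamin E, where 5.97% of all tested genes were higher and 3.14% lower. Without regard to p, 11 of the 19 were higher and 8 lower, with a median log2 difference of 0.17. The adjusted test passed 0 of the 19. The kinase gene PDK4, the ubiquitin ligase genes TRIM63 and FBXO32 and the mitochondrial carrier gene UCP3 had the largest differences, at 2.07, 1.68, 1.84 and 2.02. USP2, a deubiquitinase gene with a daily rhythm in mouse tissues, was at 35.2, 36.3 and 37.9 FPKM in the controls and at 42.0, 59.7 and 55.6 FPKM with vitamin E, a log2 difference of 0.50 ± 0.15 (SE). Its unadjusted p was 0.0509 without vitamin E replicate 2. KLF15, a transcription factor of amino acid and lipid use, differed by 1.13 ± 0.40 (SE) with overlapping groups, since vitamin E replicate 1 (20.9 FPKM) lay below control replicate 2 (21.9 FPKM). PPARGC1B, a coactivator of mitochondrial genes, averaged 0.963 FPKM in controls and 1.54 FPKM with added vitamin E, so it passed the limit of 1 FPKM only through the group where it is high, and its place among the 7 supports nothing. KLF15 no longer had an unadjusted p under 0.05 in 3 of the 6 fits that left out a library, those lacking the third control or either the second or the third vitamin E library. For PPARGC1B this was so in 4 of the 6, those lacking control replicate 1 or 3 and those lacking the first or the second vitamin E library. The myogenic factor gene MYOD1 and the titin-cap gene TCAP, both clock targets in mouse muscle, differed by -0.21 and -0.42 with overlapping groups, and were added after their values were seen. WEE1 of the same list, added likewise, differed by -0.24 ± 0.12 (SE), with an unadjusted p of 0.0902 in limma. Every vitamin E library lay below every control in WEE1, which holds for 5.72% of all tested genes.

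By profile over the 6 libraries, the nearest tested genes to ARNTL were BTN1A1 and LHFPL5, with root mean square differences of 0.13 and 0.14 between centred log2(FPKM + 1) values, where the profile of ARNTL itself had a root mean square of 0.48. The control mean of LHFPL5, 0.723 FPKM, lay under the limit of 1 FPKM, and its vitamin E mean was 2.48 FPKM. Only the vitamin E group carried it past the filter, so no conclusion is drawn from its place. Counted among all tested genes, NFIL3 was 27th nearest to ARNTL, at 0.21, whereas HLF was 641st, at 0.35. Nearest to NFIL3 among genes with a symbol were ARRDC3 and RAB40B, at 0.14 each, and ARNTL was 38th among all tested genes at 0.21. Nearest to HLF were MIRLET7D and SRPX, at 0.13 each. MIRLET7D is the row of a microRNA precursor, and since a longer transcript across it may share its reads, its place is uncertain. For CLOCK the nearest were PARP8 and ZNF302, for RORA TMCO3 and NANP, for ARNTL2 BCLAF1 and TBK1, and for TEF ASB7 and AP4S1. With 6 libraries, 11320 genes and the groups themselves among the differences, near profiles are a description only.

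**Figure D5:**
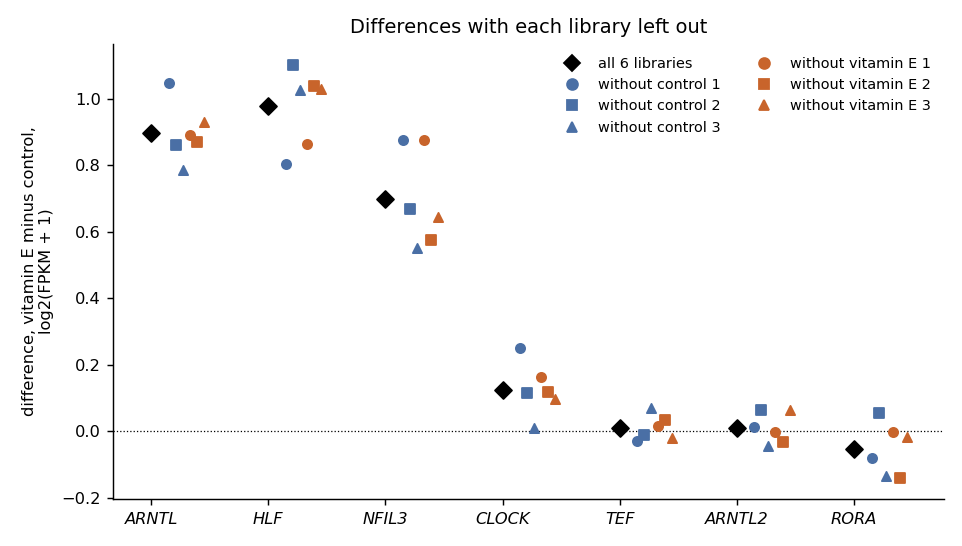
Difference between vitamin E and control on the log2(FPKM + 1) scale for the 7 tested genes, with all 6 libraries (black diamonds) and with each library left out (blue for a control, orange for a vitamin E library; circle, square and triangle for replicates 1, 2 and 3). ARNTL, HLF and NFIL3 stay above 0, NFIL3 between 0.55 and 0.87, whereas TEF, ARNTL2 and RORA lie on either side of 0.

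Markers of other cells and responses differed between the groups in part. Their part in the differences was not tested. In whole tissue, more RNA per cell and more cells of a type cannot be told apart. The 7 fibroblast genes were all higher with vitamin E, 6 of them at an unadjusted p under 0.05, a threshold that 5.97% of all tested genes pass in that direction and 9.11% in either, and summed to between 1511 and 1754 FPKM in controls and between 2200.0 and 3081 FPKM with vitamin E. The 6 adipocyte genes summed to between 142 and 226 FPKM and to between 242 and 375 FPKM, with 1 of 5 tested, FABP4, at that threshold. FABP4 averaged 114 and 214 FPKM and made up most of these sums, and none of the adipocyte genes separated the groups by itself. The 4 red cell genes with a row summed to between 34.5 and 72.5 FPKM and to between 76.0 and 97.9 FPKM, and both tested ones were higher. The sums of the 7 endothelial genes overlapped, at 152 to 215 and 180 to 234 FPKM, although ESAM alone among them was higher without overlap. Of the 7, 0 were at the threshold. The same count was 0 of 11 for fibre genes, 0 of 4 for slow fibre genes, 0 of 5 for smooth muscle genes and 0 of 6 for leukocyte genes. All 20943 genes with a row had a value above 0 in at least 1 library, so no listed gene with a row could be at 0 in all 6.

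Of 7 genes that respond to glucocorticoid hormone, 4 were higher at an unadjusted p under 0.05, against 5.97% of all tested genes, namely ZBTB16, TSC22D3, KLF9 and FKBP5, with log2 differences of 1.22, 1.00, 0.69 and 1.56. The other 3 had negative differences short of that threshold, -0.65 for ERRFI1, -0.24 for NR3C1 and -0.081 for SGK1. The 7 summed to between 81.1 and 114 FPKM in controls and between 136 and 201 FPKM with vitamin E. The receptor gene NR3C1 itself averaged 7.27 ± 0.0694 FPKM without and 6.03 ± 0.591 FPKM with added vitamin E (SD, n = 3), and its groups did not overlap. Of 6 tested early response genes, 3 were lower at that threshold, against 3.14% of all tested genes, and the 7 with a row summed to between 97.5 and 348 FPKM in controls and between 76.3 and 103 FPKM with vitamin E. The upper end of the control range was control replicate 1. The hour of sampling, which decides the phase at which the clock is observed, is not among the labels. Its part in these differences was not tested.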

How the data were processed

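FPKM values per gene were used as the authors deposited them, in 1 table with a column per library. Alignment software is listed as TopHat2 2.0.12, per the submitters' processing notes. The labels give no counting program, annotation, build or strand setting, so overlapping and antisense genes may share reads. Genes were matched by the name in the table. Positions are those of the table, and chromosome names were given by the reference chromosome that holds at least 99.2% of the gene symbols of each record. Library totals and whole reads were recovered from the FPKM steps for 100% of the 11320 tested genes, within 0.001 of a whole read and 0.05 of a whole base of length.

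The 3 vitamin E and 3 control libraries were compared by a two-sided limma test (version 3.58.1, R 4.3.3) with an intensity trend. Values were log2(FPKM + 1) of genes averaging 1 FPKM or more. Benjamini-Hochberg adjustment covered all of these genes, at a threshold of 0.05. The scale understates differences of low genes such as NPAS2. With 3 libraries a side, the smallest two-sided exact permutation p is 0.1, so none was used. The scripts were tested on simulated data. The rule named all 9 genes, other clock genes with an unadjusted p under 0.05 and the next 2 by p, clock outputs and ROR co-regulators at that threshold, and the 2 nearest profiles with a symbol of each tested gene. Rows named by a LOC identifier, a number or a date were passed over as nearest profiles, but were counted in the places given. Genes outside this rule, among them RORB and those of the marker and response lists, were named after their values were seen. The genes and lists were chosen with earlier results of these data known. A planned search for binding motifs was not run, and no sequence was used here. Poisson intervals cover counting error only, since PCR copies are not told apart. Alternatives were pseudocounts of 0.1 and 0.5, no filter or a minimum of 5 FPKM, TMM-type and quantile scaling, no trend, blocks, limma-voom on recovered reads, and each library left out. Figures were drawn with matplotlib 3.10.9.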

Additional observations from a re-analysis of the deposited data

How the results depend on the processing

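None of the 7 tested genes passed the adjusted test under any of the 16 alternatives (ARNTL2 and RORA were untested at the 5 FPKM minimum). Their count at an unadjusted p under 0.05 stayed at 3 except for 2 without vitamin E replicate 2 and 4 with no filter, which adds NPAS2. Over all tested genes, the count at that threshold was 1031 of 11320 in the main fit. It was 690 of 11279 without vitamin E replicate 2 and 1529 of 20943 with no filter. ARNTL and HLF had an unadjusted p under 0.05 in 16 of 16 alternatives and NFIL3 in 15. Over all genes, 2 passed among those with a mean of at least 5 FPKM and 2 with limma-voom on recovered reads, against 0, and 0 in each fit without a library. Among the other clock genes the count of 3, taken in either direction, was 1 with the 5 FPKM minimum, which tests fewer genes. It was 5 with limma-voom, where CRY1 (higher) and NR1D1 (lower) joined the 3 and the cause was not tested. NR1D1 passed the filter only through the group where it is high, so its place supports nothing. The clock gene count was between 3 and 7 without single libraries. Differences near 0 turned in sign: ARNTL2 to -0.015 with TMM-type and -0.020 with quantile scaling and between -0.046 and 0.065 without single libraries, TEF to -0.020 and -0.0011 and between -0.031 and 0.069, and RORA between -0.14 and 0.056. For NPAS2 the difference was 0.93 with no filter and a pseudocount of 0.1 and 1.24 with no filter and limma-voom, both chosen after seeing the data. With the replicate block, 3 of the 7 genes had an unadjusted p under 0.05, as did 1043 of all 11320, and 0 passed the adjusted test. Same-numbered libraries had deviations correlated at -0.13, 0.15 and 0.012 across genes, and libraries of unlike number at between -0.17 and 0.14. With deviations that sum to 0 within each group of 3, these correlations cannot show whether the numbers pair the samples. A block on the digit in the sample description also left 3 of the 7, beside 1011 of all 11320. Depth limits NPAS2, with 11 to 58 reads per library.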

Other observations

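Co-regulators of ROR receptors were read from a list of 10 names, 9 of them tested. NCOR1, the corepressor that REV-ERB receptors recruit in mammals, was at 10.1, 13.7 and 9.09 FPKM in the controls and at 14.6, 20.3 and 18.1 FPKM with vitamin E, a log2 difference of 0.65 ± 0.18 (SE), and every vitamin E library lay above every control. It was the only 1 of the 9 with an unadjusted p under 0.05, against 9.11% of all tested genes, and its adjusted p in limma was 0.385, between 0.165 and 0.803 under the alternatives. The genes of this list named next were chosen after their values were seen. HDAC3, the deacetylase that this corepressor carries, averaged 10.2 ± 0.267 and 11.9 ± 0.996 FPKM (SD, n = 3) without overlap. The coactivator genes NCOA1, NCOA2 and NCOA3 and the acetyltransferase genes EP300 and CREBBP differed by between -0.12 and -0.023.

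Control replicate 1 took opposite places in different genes of the loop. It was the highest control in ARNTL, CLOCK, NFIL3 and BHLHE40, the lowest in HLF, TEF and PER3, and between the other controls in ARNTL2, RORA and CIART. The order of the controls by ARNTL was therefore not their order by HLF.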
